A study of Brassica rapa and Brassica rapa x Brassica nigra and Brassica nigra with 18 samples.

Results

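The difference in stage change between the Brassica allohaploid (AB) and its mother species Brassica rapa (AA) was measured for the genes of the A genome. It is the change from meiosis to mitosis in AB minus the same change in AA, a statistical interaction. The members are the genes whose identifiers begin with BjuA: 36454 of the 79644 identifiers in the count table, of which 23143 passed the filter on low counts and were tested. RNA was sequenced from anthers of AA, of Brassica nigra (BB) and of AB, while the labels' protocols name flower buds with anthers. The labels describe AB as a haploid from a cross of B. rapa as the seed parent with B. nigra as the pollen parent, also called Brassica juncea. The 4 groups used here are AA at meiosis (young anthers, sporogenesis), AA at mitosis (anthers, gametogenesis), AB at meiosis and AB at mitosis, with 3 libraries each, and BB libraries served to see which A identifiers also collect reads from the B genome and to set the B genes beside the A genes. The labels give no plant age, no finer staging within each period and nothing on whether replicate libraries stem from different plants. The tests therefore see the scatter among libraries alone, and that scatter could be purely technical. The question the contrast addresses is whether the A genome follows the same expression programme through male development when it is paired with a B genome and has no homologous partner.

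At meiosis the spore mother cells of the anther divide into haploid microspores, surrounded by the tapetum, a nurse tissue that feeds them and supplies their wall. The later mitotic divisions of the microspore give the vegetative cell, which will grow the pollen tube, and the sperm cells. The tapetum breaks down in that period and a distinct set of pollen transcripts accumulates. In an allohaploid each chromosome is present without a homologue, so regular pairing and balanced segregation at meiosis are not possible and pollen is often sterile. A stage change in bulk anthers, or in buds with anthers, therefore mixes changes in transcript level per cell with changes in which cells the sample holds. In bulk samples fewer cells of a type and less RNA per cell cannot be told apart, and neither can a shifted mix of bud stages.

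The 12 libraries held 11132967 to 12161111 counts, of which 10268402 to 10854684 fell on A genes in AA and 5596444 to 6050088 in AB. A-gene values in AB thus rest on fewer counts. BB libraries placed 4.83% to 5.76% of their counts on A genes, although BB has no A genome. Every pair of replicates differed by more than counting error: the chi-square per degree of freedom over A genes with at least 20 counts in the pair ran from 2.39 to 7.18, and the largest value came from AA at mitosis, replicates 1 and 3. The files do not pair identifiers with gene names, and 0 of them matched a table of 51589 B. rapa genes. Tapetum, meiocyte and pollen markers were therefore not checked, and genes are described by their course through development.

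Stage changes differed between AB and AA for a large part of the A genome. Of the 23143 genes tested, 10058 (43.5%) had an interaction at an adjusted p under 0.05 (edgeR quasi-likelihood F test, adjusted by Benjamini-Hochberg). Of these, 5064 (21.9%) were higher, meaning that the change from meiosis to mitosis was more positive in AB than in AA, and 4994 (21.6%) were lower. With a minimum of 2-fold, 5796 genes (25%) remained, 3126 higher (13.5%) and 2670 lower (11.5%). The interaction was at least 4-fold for 2189 genes, at least 8-fold for 1011 and at least 32-fold for 280. The median log2 interaction of the higher genes was 1.21 (middle 50% from 0.77 to 2.0) and that of the lower genes was -1.06 (from -1.68 to -0.69), against 0.04 over all genes tested (from -0.70 to 0.80).

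The balance of higher against lower genes depended on how libraries were scaled. TMM, the scaling used here, sets the bulk of A genes to no change, and its factors were 1.17 to 1.18 for AA at meiosis, 0.812 to 0.824 for AA at mitosis, 1.05 to 1.06 for AB at meiosis and 0.973 to 0.995 for AB at mitosis. Without such factors 8226 genes were higher and 2887 lower, with a median of 0.45 over all genes. With library sizes and factors from A, B and unplaced genes together, 3456 were higher and 7037 lower, with a median of -0.27. On log2(FPKM + 1), limma called 9663 genes higher and 4637 lower, and on log2(FPKM + 0.1) it was 8768 and 3546, with medians of 0.31 and 0.42. Called in the same direction under all 6 count scalings were 6306 of the 10058 genes, 3432 higher and 2874 lower. Directions below are relative to the bulk of A genes.

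An interaction can come from a difference between AB and AA at meiosis, at mitosis or at both, since it equals AB minus AA at mitosis less AB minus AA at meiosis. Each called gene was sorted by the sizes of these log2 differences. For 3885 genes (38.6% of those called) the difference at meiosis was at least 2 times that at mitosis, and these are called mainly-meiosis genes. For 2898 genes (28.8%) the difference at mitosis was at least 2 times that at meiosis (mainly-mitosis genes). For 2889 genes (28.7%) both stages contributed with opposite signs, and for 386 genes (3.84%) AB differed from AA in the same direction at both stages but by unequal amounts. Over all 23143 genes tested, called or not, the shares of these 4 sets were 31.3%, 27.1%, 18.0% and 23.6%. The sorting uses the values that make up the interaction, so its counts are a description with no test.

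**Figure D1:**
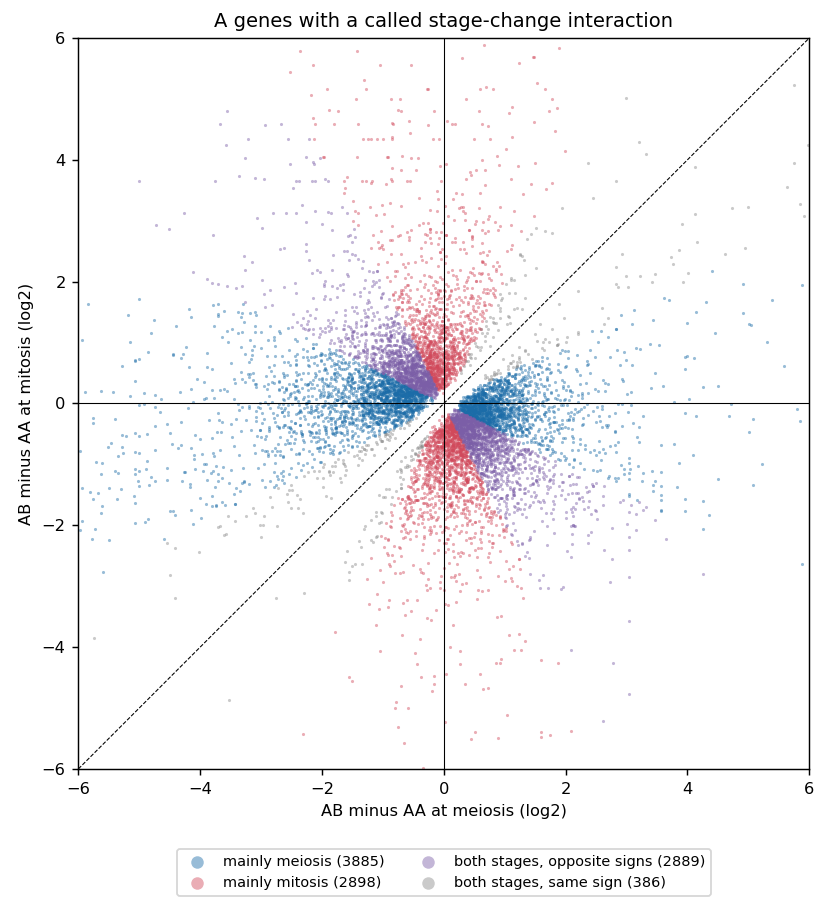
Each point is 1 of the 10058 called A genes, with AB minus AA at meiosis on the horizontal axis and AB minus AA at mitosis on the vertical axis, both log2, and colours for the 4 sets. The dashed diagonal marks equal differences at both stages; 160 genes lie beyond the limits of 6 and are not drawn, and the horizontal band of the 3885 mainly-meiosis genes is fuller than the vertical band of the 2898 mainly-mitosis genes.

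Mainly-meiosis genes outnumbered mainly-mitosis genes under 5 of the 6 count scalings and not under the other. They numbered 3823 to 3930 against 2876 to 3405 under TMM, relative log expression, upper-quartile and DESeq2 factors and without factors. With limma on log2(FPKM + 1) they were 7306 against 3830. FPKM divides by all counts of the library, and the median log2 difference between AB and AA was -0.77 at meiosis and -0.48 at mitosis. With library sizes from all genes the order reversed, at 2815 against 4988, and there the median log2 difference between AB and AA over all genes tested was -0.33 at meiosis and -0.63 at mitosis, against -0.00 and -0.01 under TMM. Among the 6306 genes called in the same direction under all 6 scalings, 2720 also stayed in the same set under all 6, and these were 1180 mainly-meiosis genes, 1161 mainly-mitosis genes, 312 with opposite signs and 67 with the same sign. Sorted by calls in place of sizes, 3020 genes differed between AB and AA at meiosis alone, 2365 at mitosis alone, 2987 at both in opposite directions, 1430 at both in the same direction and 256 at neither. As background, 53.5% of A genes tested were called between AB and AA at meiosis (27.7% higher in AB and 25.8% lower) and 52.3% at mitosis (24.2% higher and 28.1% lower). The larger difference was 1.8 to 2.2 times the smaller for 984 genes, which thus lay close to the limit.

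The sets can also be followed as shares of the A counts. A share corresponds to the setting without scaling factors, whereas the sets were sorted under TMM, so shares and fitted differences can disagree. The sets were sorted on these same libraries, so a gap at the deciding stage is given by the sorting. The 2156 mainly-meiosis genes with a higher interaction took 19.0%, 19.1% and 19.1% of the A counts in the 3 AA libraries at meiosis and 7.20%, 7.24% and 7.21% in AB at meiosis. At mitosis they took 21.0%, 20.8% and 20.3% in AA and 18.1%, 18.0% and 17.9% in AB. At meiosis AB thus held less than AA by far, as the sorting would give. At mitosis the summed share in AB was still below every AA library but much nearer to it. The median log2 difference of the single genes at mitosis was 0.06 under TMM. The top 10 genes held 32.6% of the set's share in AA at mitosis. The 1729 mainly-meiosis genes with a lower interaction showed the reverse at meiosis, with a mean of 17.8% ± 0.0774 in AB against 11.1% ± 0.0331 in AA (SD, n = 3 libraries here and below). At mitosis their shares were 10.1% ± 0.0194 in AB and 8.67% ± 0.112 in AA, although their median log2 difference under TMM was -0.08.

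For the mainly-mitosis genes the shares parted at the later stage. The 1353 genes with a higher interaction took 3.44%, 3.53% and 3.64% of the A counts in AA at mitosis and 9.62%, 9.78% and 9.75% in AB. At meiosis they took 9.45% ± 0.0109 in AA and 10.1% ± 0.0209 in AB, so the share fell to 0.374 of its meiosis value in AA and stayed at 0.957 of it in AB. The 1545 genes with a lower interaction took 11.4% ± 0.0610 in AA and 6.50% ± 0.0222 in AB at mitosis, and 10.1% ± 0.0216 and 9.29% ± 0.0221 at meiosis. No library of AA overlapped with one of AB at mitosis in either set, as the sorting on these libraries would give.

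Genes with opposite signs crossed between the stages. The 1343 with a higher interaction went from 6.49% ± 0.0155 to 3.31% ± 0.0718 in AA and from 3.83% ± 0.00922 to 6.36% ± 0.0612 in AB. The 1546 with a lower interaction went from 11.6% ± 0.00452 to 10.4% ± 0.256 in AA and from 14.9% ± 0.0191 to 7.87% ± 0.0286 in AB. The 212 same-sign genes with a higher interaction went from 2.61% ± 0.0115 to 5.74% ± 0.205 in AA and from 4.56% ± 0.139 to 4.42% ± 0.0472 in AB. Their summed share thus moved against the direction of the single genes' interactions, and 2 genes held at least 50% of it in AA at mitosis. The 174 same-sign genes with a lower interaction went from 1.53% ± 0.00158 to 1.31% ± 0.0232 in AA and from 2.83% ± 0.00984 to 1.79% ± 0.0206 in AB. The 13085 genes tested and not called took 28.0% ± 0.00849 and 34.7% ± 0.807 in AA and 29.3% ± 0.00982 and 35.1% ± 0.0681 in AB.

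**Figure D2:**
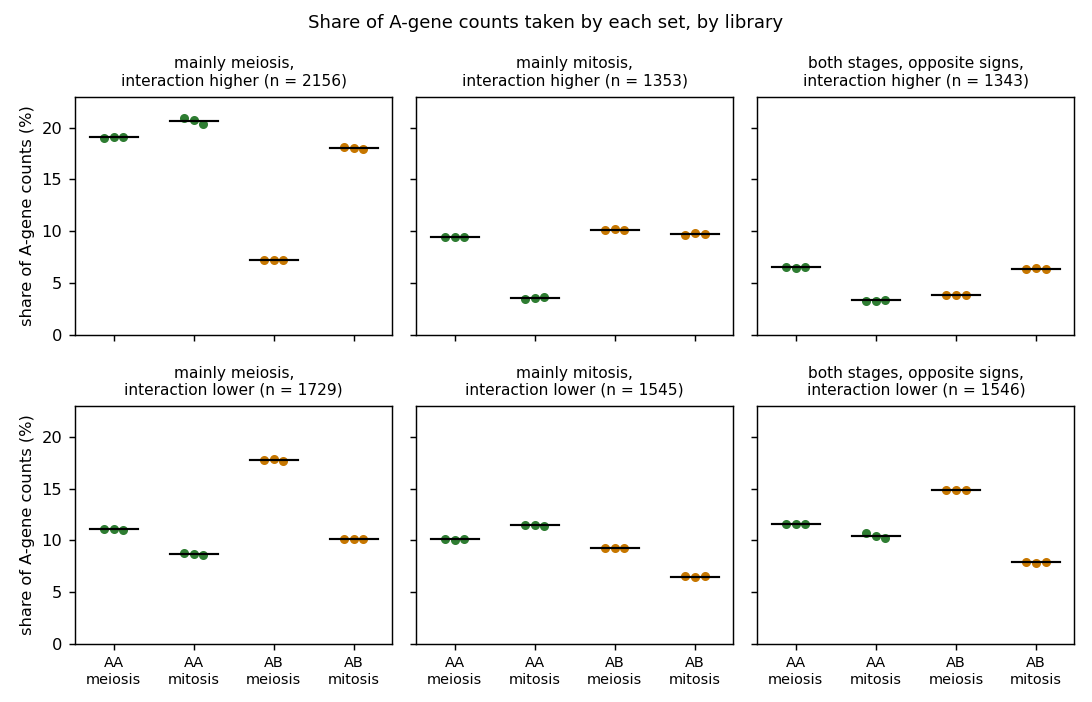
Share of A-gene counts (%, vertical axis) taken by 6 sets of called genes in each library of the 4 groups; points are libraries and bars are group means. AB at meiosis stands at 7.22% against 19.1% in AA for the mainly-meiosis genes with a higher interaction, and AA at mitosis stands at 3.54% against 9.72% in AB for the mainly-mitosis genes with a higher interaction.

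Among the mainly-meiosis genes with a higher interaction, the median log2 difference between AB and AA was -1.22 at meiosis (middle 50% from -2.10 to -0.78) and 0.06 at mitosis (from -0.20 to 0.25). Their median stage change was -0.13 in AA and 1.24 in AB. BjuA044571 had the largest interaction among the genes open to naming. It stood at 284, 277 and 288 CPM in the 3 AA libraries at meiosis and at 9.0, 12 and 8.25 CPM in AB, where CPM is the gene's count relative to all A-gene counts of the library after TMM scaling, not divided by gene length. At mitosis it reached 745, 741 and 801 CPM in AA and 1267, 1424 and 1403 CPM in AB. AB was thus far below AA at meiosis, where the rule for naming genes required libraries without overlap. It was above AA at mitosis, where the libraries did not overlap either. The log2 stage change was 1.43 (SE 0.06) in AA and 7.12 (SE 0.09) in AB, and the interaction was 5.69 (SE 0.11, edgeR adjusted p = 1.02e-20). BjuA020647, chosen for its high level, stood at 7479, 7860 and 7599 CPM in AA at meiosis and at 1968, 2286 and 2409 CPM in AB. At mitosis the libraries ranged from 2814 to 2896 CPM in AA and from 3228 to 3506 CPM in AB. The gene fell in AA (log2 change -1.43, SE 0.06) and rose in AB (0.59, SE 0.06), an interaction of 2.02 (SE 0.08, edgeR adjusted p = 5.76e-15).

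Mainly-meiosis genes with a lower interaction were higher in AB at meiosis by a median log2 of 0.90 (middle 50% from 0.62 to 1.36) and differed by -0.08 at mitosis. Their median stage change was 0.39 in AA and -0.58 in AB. BjuA020325 rose strongly in both plants and ended at the same level: 3551, 3648 and 3915 CPM in AA and 3523, 3764 and 3778 CPM in AB at mitosis, where the libraries overlapped. At meiosis it stood at 1.65, 1.02 and 2.29 CPM in AA and at 13.2, 13.0 and 11.5 CPM in AB. The interaction of -2.92 (SE 0.19, edgeR adjusted p = 1.43e-11) thus came from a higher starting level in AB, which in AA rested on 13 to 29 counts per library. BjuA022747 went from 1.42, 1.88 and 1.11 CPM to 17.5, 16.6 and 16.0 CPM in AA. In AB it stood at 7.83, 11.4 and 7.42 CPM at meiosis and 8.08, 10.6 and 7.81 CPM at mitosis, without a called stage change. Its interaction was -3.51 (SE 0.32, edgeR adjusted p = 4.01e-09), and it was -1.85 with limma on log2(FPKM + 1), which shrinks changes of low genes.

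Mainly-mitosis genes with a higher interaction were higher in AB at mitosis by a median log2 of 1.07 (middle 50% from 0.68 to 1.89), with -0.08 at meiosis. Their median stage change was a fall in AA, -1.11, and 0.04 in AB. BjuA017126 fell in both plants, from 1015, 1007 and 1055 CPM to 2.28, 3.55 and 1.28 CPM in AA and from 2405, 2400 and 2432 CPM to 85.3, 119 and 138 CPM in AB. Its log2 fall was -8.75 (SE 0.17) in AA and -4.40 (SE 0.11) in AB, an interaction of 4.35 (SE 0.23, edgeR adjusted p = 3.91e-13). The level left at mitosis in AB was above all AA libraries, where the rule for naming genes required no overlap. The gene also started at a higher level in AB than in all AA libraries. BjuA005987 rose in both plants, from 35.7, 31.0 and 34.6 CPM to 556, 751 and 965 CPM in AA and from 56.0, 54.4 and 55.1 CPM to 4084, 4178 and 4020 CPM in AB. The AA libraries at mitosis were spread widely for this gene. All lay below the AB libraries, but the rule for naming genes required that the libraries not overlap there. The interaction was 1.73 (SE 0.18, edgeR adjusted p = 4.36e-08).

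Mainly-mitosis genes with a lower interaction were lower in AB at mitosis by a median log2 of -1.03 (middle 50% from -1.60 to -0.67), with 0.09 at meiosis, and their median stage change was 0.69 in AA and -0.42 in AB. BjuA007434 started at 12.9, 13.4 and 13.4 CPM in AA and 11.8, 11.9 and 11.5 CPM in AB. It reached 5347, 5440 and 5583 CPM in AA at mitosis and 1662, 1705 and 1694 CPM in AB. The gene rose in both plants but less in AB, with an interaction of -1.52 (SE 0.11, edgeR adjusted p = 4.39e-11). BjuA017089 went from 3.30, 2.89 and 3.87 CPM to 70.7, 69.8 and 62.7 CPM in AA. In AB it stood at 3.17, 2.80 and 1.81 CPM at meiosis and at 2.69, 1.25 and 4.93 CPM at mitosis, so no stage change was called. The interaction was -4.13 (SE 0.42, edgeR adjusted p = 2.72e-08) and -4.72 without AB replicate 3 at mitosis, which held 29 of the gene's counts there against 15 and 7 in the other libraries.

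Genes with opposite signs and a higher interaction had a median log2 difference between AB and AA of -0.65 at meiosis and 0.62 at mitosis, and those with a lower interaction had 0.62 and -0.62. BjuA003546 fell in AA from 234, 214 and 227 CPM to 37.7, 43.2 and 36.1 CPM. In AB the same gene rose from 23, 20.5 and 20.1 CPM to 145, 137 and 153 CPM. The direction of the stage change was thus reversed, with an interaction of 5.31 (SE 0.11, edgeR adjusted p = 2.56e-20). BjuA018023 rose in AA from 2.75, 0.938 and 0.554 CPM to 1770, 1644 and 1924 CPM and in AB from 17.3, 10.6 and 6.43 CPM to 456, 430 and 467 CPM. It thus began higher and ended lower in AB. Its interaction of -4.98 (SE 0.36, edgeR adjusted p = 7.77e-11) was -5.89 without AA replicate 1 at meiosis, which held 35 counts against 12 and 7.

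**Figure D3:**
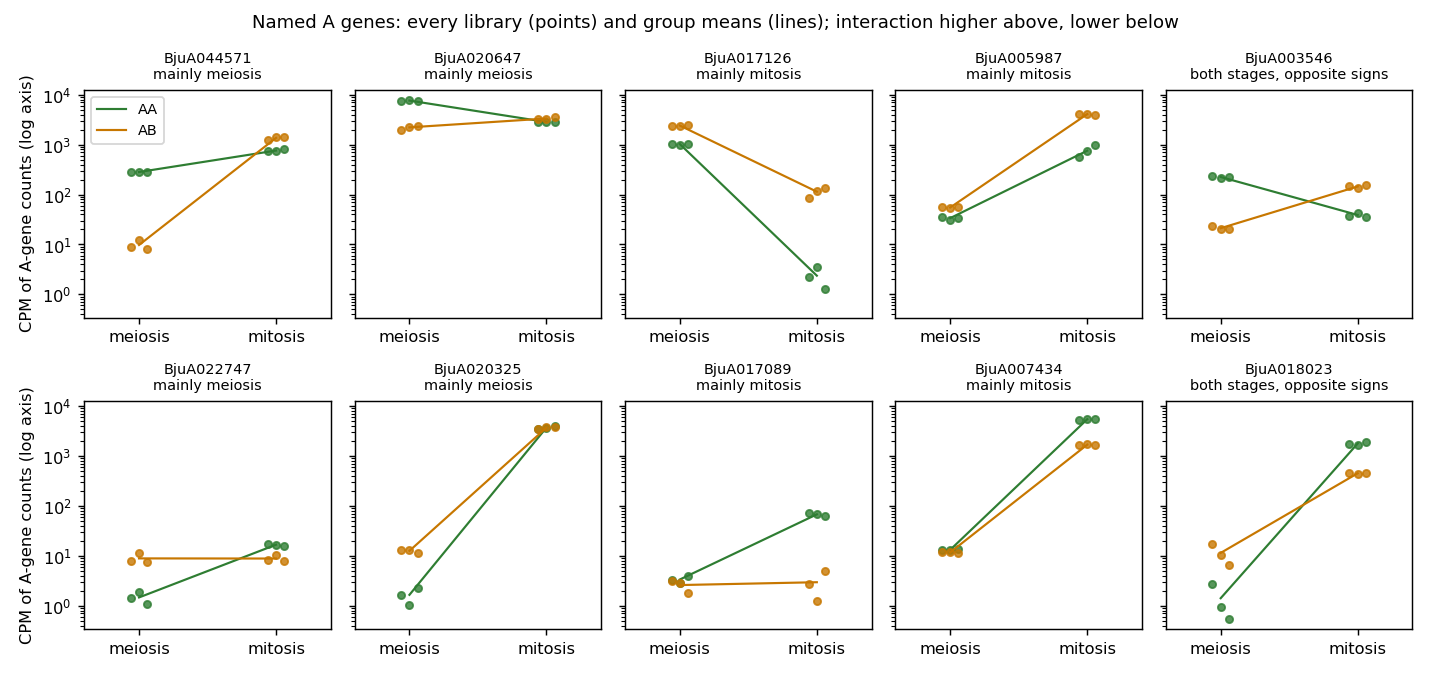
Level of the 10 named A genes in CPM (log axis) at meiosis and mitosis; points are the 3 libraries of each group, and lines join the group means of AA (green) and AB (orange). The upper row holds genes with a higher interaction, such as BjuA003546, which fell in AA and rose in AB, and the lower row those with a lower interaction, such as BjuA007434, which reached 5456 CPM in AA and 1687 CPM in AB.

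The called genes were next described by the stage change in each plant. Among all A genes tested, 78.3% changed between the stages in AA (40.8% rose and 37.5% fell) and 77.5% in AB (41% rose and 36.4% fell). As background for the shares below, the 5064 higher genes held 2156 mainly-meiosis, 1353 mainly-mitosis and 1343 opposite-sign genes. The 4994 lower genes held 1729, 1545 and 1546 of these. A rise in both plants that was larger in AB was found for 1526 genes (15.2% of those called). In these the median stage change was 1.26 in AA and 2.57 in AB, and 53.5% were mainly-meiosis genes against 19.0% mainly-mitosis genes. A rise in both that was smaller in AB was found for 1416 genes, with medians of 2.65 and 1.31. Here 35.4% were mainly-mitosis and 29.7% mainly-meiosis genes.

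Falls in both plants were larger in AB for 1454 genes, with median changes of -0.88 in AA and -1.71 in AB. Of these, 36.5% were mainly-meiosis and 31.6% mainly-mitosis genes, close to the make-up of all lower genes. Falls were smaller in AB for 1242 genes, with medians of -2.23 and -1.17. Of these, 43.0% were mainly-mitosis and 28.5% mainly-meiosis genes. Over the 6 scalings the rises in both plants numbered 968 to 1685 where larger in AB and 813 to 1522 where smaller, and the falls 1001 to 2432 where larger in AB and 1000 to 2604 where smaller, so the order of these patterns depends on scaling. A rise called in AA had no called counterpart in AB for 802 genes, and a fall in AA had none for 891. In the other direction, 797 genes rose and 679 fell in AB with no call in AA. The stage changes share all their libraries with the interaction, so these patterns describe it and lend it no separate support. An absent call is not a test that the stage change was 0, and for these genes only the interaction itself was tested.

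A called stage change had opposite directions in AA and AB for part of the called genes. A fall in AA and a rise in AB was seen for 581 genes, with medians of -0.76 and 0.83, and 492 of them had an interaction of at least 2-fold. A rise in AA and a fall in AB was seen for 627 genes, with medians of 0.59 and -0.66, and 460 of them reached 2-fold. Of the first group 49.7% were mainly-meiosis genes and 30.1% had opposite signs, and of the second group 32.7% were mainly-meiosis genes and 42.9% had opposite signs. BjuA020647 and BjuA003546 belong to the first group. Both counts moved with scaling, from 372 to 1172 genes for the first group and from 245 to 961 for the second over the 6 scalings.

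**Figure D4:**
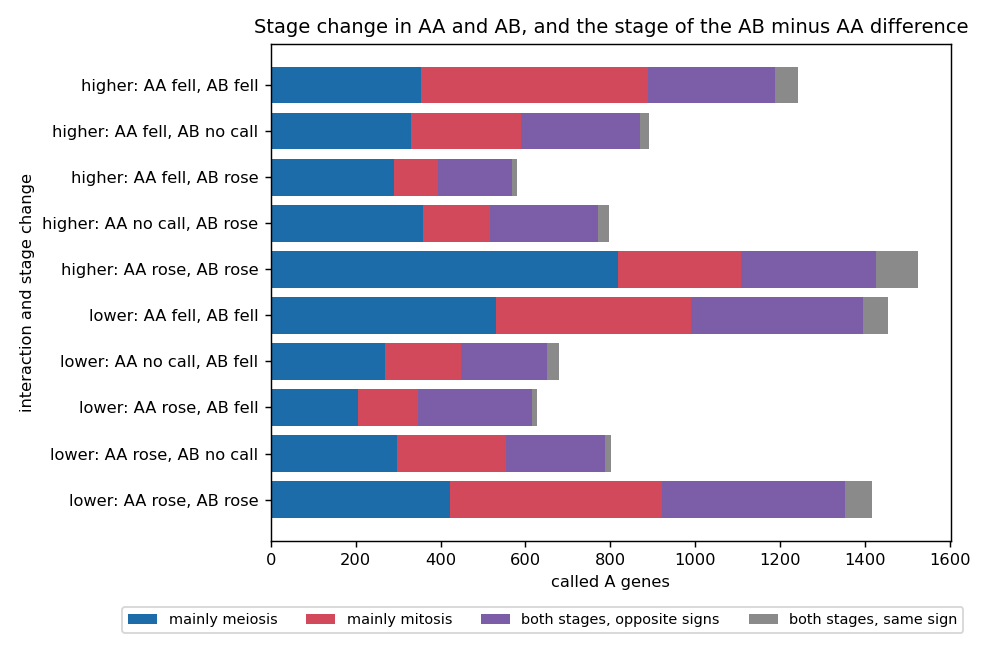
Number of called A genes (horizontal axis) by direction of the interaction and by the stage change called in AA and in AB, with colours for the stage at which AB and AA differed. The bars are counts under TMM, and their order depends on scaling; that of the 1526 genes that rose more in AB is mostly mainly-meiosis genes, while that of the 1242 genes that fell less in AB has more mainly-mitosis genes; the 27 higher and 16 lower genes without a call in either plant are not drawn.

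The share of called genes rose with the expression level up to 1000 CPM. It was 11.5% of the 1103 genes with a mean of under 1 CPM over the 4 groups, 26.3% at 1 to 10 CPM, 55.1% at 10 to 100 CPM and 75.4% at 100 to 1000 CPM. Of the 66 genes with a mean of 1000 CPM or more, 45 were called (68.2%). The share called with at least 2-fold was 23.9% at 1 to 10 CPM, 25.9% at 10 to 100 CPM, 32% at 100 to 1000 CPM and 54.5% in the most abundant 66 genes. Among these 45 called genes, 31 were higher and 14 lower, and 23 were mainly-meiosis genes, 11 mainly-mitosis genes, 9 of the same sign and 2 of opposite signs. Mainly-meiosis genes made up 36.0%, 39.3% and 40.3% of the called genes in the bins from 1 to 10, 10 to 100 and 100 to 1000 CPM.

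By size of the interaction, mainly-meiosis genes outnumbered mainly-mitosis genes up to 32-fold. They were 40.3% against 30.2% under 2-fold, 37.0% against 27.9% at 2- to 4-fold and 39.9% against 26.0% at 8- to 32-fold. Of the 280 genes at 32-fold or more, 113 (40.4%) were mainly-mitosis and 91 (32.5%) mainly-meiosis genes. Only 100 of these 280 had counts in every group; for the others the fitted fold depends on the prior count and is no measured size.

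**Figure D5:**
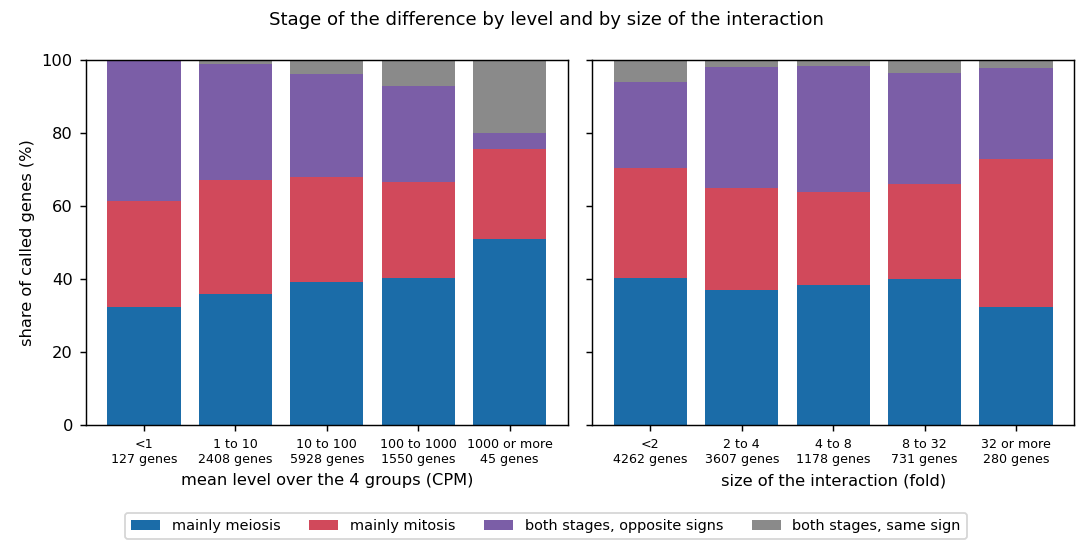
Share of called A genes (%, vertical axis) in each of the 4 sets by mean level over the 4 groups in CPM (left) and by size of the interaction as a fold (right), with the number of called genes under each bar. Mainly-meiosis genes lead in the bins from 1 CPM upward and in the size bins up to 32-fold, and mainly-mitosis genes are 40.4% of the genes at 32-fold or more.

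Genes without any count in a group showed where expression was not detected. Of the called genes, 297 had 0 counts over the 3 libraries of at least 1 group, which allows up to 3 counts over that group, and these limits cover counting error only. Of the mainly-meiosis genes with a higher interaction, 86 had no count in AB at meiosis. Of the mainly-mitosis genes with a higher interaction, 84 had no count in AA at mitosis. Among lower interactions, 39 mainly-meiosis genes had no count in AA at meiosis and 24 mainly-mitosis genes had none in AB at mitosis. Over all 23143 genes tested, 2211 had no count in at least 1 group, so such genes were rarer among called genes. By group these were 917 in AA at meiosis, 1016 in AA at mitosis, 917 in AB at meiosis and 344 in AB at mitosis. The sorting decides which group holds the zeros of a set, so these counts mark no trait of the sets. AB libraries held fewer A counts, so a gene at the same level could reach 0 there more easily. Over all genes tested, however, zeros were not more frequent in AB than in AA at either stage. With a floor of 3 counts over the group for the 297 called genes, the median interaction of the higher genes was 1.19 in place of 1.21. For the lower genes it was -1.06.

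A identifiers that also collect reads from BB were unevenly spread over the sets. Of all genes tested, 9.17% drew 10% or more of their parental CPM, the sum of AA and BB, from BB. The share was 12.1% of the mainly-meiosis genes with a lower interaction and 9.61% of the mainly-mitosis genes with a higher interaction, the sets in which AB lay above AA. It was 1.35% of the mainly-meiosis genes with a higher interaction and 2.33% of the mainly-mitosis genes with a lower interaction, in which AB lay below AA, and 25.9% of the 386 genes with the same sign. When these identifiers were left out before scaling and fitting, 4842 genes were higher and 4653 lower, with 3668 mainly-meiosis and 2735 mainly-mitosis genes. The 10 named genes drew at most 3.19% from BB, and the part of these reads in the results was not tested beyond that.

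Coding length, which the sorting did not use, was implied by the deposited FPKM for every called gene. Its median was 1083 bases over called genes and 1095 over all genes tested. By set it was 1042 and 1134 bases for mainly-meiosis genes with a higher and a lower interaction, and 1224 and 954 bases for mainly-mitosis genes with a higher and a lower interaction. Genes that AB held above AA at the deciding stage thus had the larger medians in both of these sets. These are descriptions over genes, which are not replicates.

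The sorting was also read in libraries that had not chosen it. With replicates 1 and 2 of each group, 8380 genes were called. In the replicate 3 libraries alone, taken as log2(CPM + 1), 8041 of these (96.0%) had an interaction of the same sign. The same set was found for 73.0% of the 3154 mainly-meiosis genes, 66.3% of the 2423 mainly-mitosis genes and 51.9% of the 2551 genes with opposite signs, which lie between both other sets. Replicate 3 is a separate library but not by its label a separate plant, and its CPM used scaling factors from all 12 libraries. If the scatter is purely technical, such agreement shows repeatable libraries and says nothing about other plants. Leaving out any 1 of the 12 libraries lost between 677 and 908 of the 10058 calls, counting up to 59 genes that then failed the filter on low counts. It turned the sign of 0 of the genes still called, and 94.5% to 96.2% of the genes still called stayed in their set.

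The B genes of the same AB libraries, compared with BB, had a called interaction for 10148 of 21204 genes (47.9%), 5138 higher and 5010 lower. Of these, 4928 (48.6%) were mainly-meiosis, 2384 (23.5%) mainly-mitosis, 2141 (21.1%) opposite and 695 (6.85%) same-sign genes. The A-gene shares of 38.6%, 28.8%, 28.7% and 3.84% stand beside these as values, and the difference between the genomes was not tested.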

How the data were processed

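RNA from flower buds with anthers was extracted with Trizol and sequenced from standard Illumina libraries, per the labels' protocols. Raw read counts for each gene and matching FPKM values, which divide by gene length and library total, were deposited, and 1 repeated column of per-library values was not used. The submitters' processing notes name HTSeq 0.6.0, TopHat2, HISAT2 2.1.0 and Bowtie 1.0.1. The role of each tool, the build, the annotation, the strand setting and the treatment of reads matching several genes are, in the sources used here, not given, so near-identical copies may share counts. The deposited FPKM equalled count over length and library total to within a relative deviation of 5.32e-08, and of the lengths this implies, 99.9% divide by 3, which makes them coding lengths.

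Counts of A identifiers in the 12 AA and AB libraries were scaled by TMM within A genes, filtered with edgeR's filterByExpr by group and fitted with edgeR 4.0.16 (R 4.3.3) in 1 quasi-likelihood model of the 4 groups, with p-values adjusted by Benjamini-Hochberg over all A genes tested. The common dispersion was 0.0075. A called gene has an adjusted p under 0.05, and the script was tested on simulated data. Alternatives were other scalings, DESeq2 1.42.0, limma 3.58.1 on log2(FPKM + 1) and log2(FPKM + 0.1), other filters, limits and thresholds, and leaving out each library. B genes were fitted in the same way against BB.

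The genes named had under 10% of their parental CPM from BB, at least 10 CPM in the highest group, at least 10 counts per library on average in the lowest group and no overlap of AB and AA libraries at the deciding stage. For mainly-meiosis and mainly-mitosis genes in each direction they are the one with the largest interaction and, among the rest with at least 2-fold, the one with the highest level; for opposite signs only the former. The members and the sets were chosen with earlier results of these data known.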

Additional observations from a re-analysis of the deposited data

Results flagged for a closer look

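The stage change differed between AB and AA, by the test of that difference itself, for 10058 A genes. The 10 genes named were picked from these, so that each was called follows from the choice. The log2 interaction was 5.69 for BjuA044571, 2.02 for BjuA020647, 4.35 for BjuA017126, 1.73 for BjuA005987 and 5.31 for BjuA003546. It was -3.51 for BjuA022747, -2.92 for BjuA020325, -4.13 for BjuA017089, -1.52 for BjuA007434 and -4.98 for BjuA018023. BB libraries, which enter no comparison of A genes, placed a mean of 4.84% of their counts on A genes at meiosis and 5.74% at mitosis, above the limit that a count of 0 allows.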

How the results depend on the processing

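Without scaling factors 8226 genes were higher and 2887 lower (5274 and 1487 at 2-fold), and with library sizes from all genes 4139 were lower at 2-fold, with 4988 mainly-mitosis, 1863 opposite and 827 same-sign genes. With limma on log2(FPKM + 1) there were 9663 higher, 7306 mainly-meiosis, 707 opposite and 2457 same-sign genes, and on log2(FPKM + 0.1) there were 8768 higher (5802 at 2-fold), 6445 mainly-meiosis, 865 opposite and 2175 same-sign genes. Genes called the same way under all 6 scalings, a choice made after seeing the data, were 2874 lower, 2449 mainly-meiosis, 1683 mainly-mitosis and 127 same-sign genes. A test against 1.5-fold called 2835 higher and 2681 lower genes, with 2087, 1472, 1851 and 106 in the 4 sets. At least 2-fold left 2169, 1611, 1890 and 126. A mean of at least 50 counts left 1588 lower genes at 2-fold. Same-sign genes numbered 238 without identifiers that drew 1% or more from BB, 210 at an adjusted p under 0.01, 252 without replicate 3, 961 at a sorting limit of 3 and 1430 by calls, and a limit of 1.5 gave 1740 opposite and 96 same-sign genes. The ratio of share changes, AB over AA, was 0.736 in place of 0.726 for mainly-meiosis genes with a lower interaction, both without identifiers with 10% or more from BB and as a share of all counts. It was 2.36 in place of 2.56 for mainly-mitosis genes with a higher interaction without those identifiers, and 0.625 in place of 0.616 for those with a lower interaction as a share of all counts. The cause of these moves was not tested.

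Leaving out 1 library gave 4748 to 4899 higher and 4716 to 4870 lower genes (2984 to 3122 and 2590 to 2705 at 2-fold), with 3653 to 3790 mainly-meiosis, 2682 to 2869 mainly-mitosis, 2755 to 2862 opposite and 320 to 357 same-sign genes. Same-numbered samples had correlations of deviations from -0.0148 to 0.0216, and differently numbered samples from -0.0193 to 0.0207. These values cannot show whether the numbers pair the samples by plant or batch, since purely technical scatter would hide a pairing. A replicate block gave 4945 higher and 4913 lower genes. DESeq2 gave 4837 and 5114. The 10 named genes kept direction and call under every alternative that gave them a value. They were chosen among called genes for a large interaction or a high level. The alternatives also reuse the same libraries, so this lends no separate support. Fewer A counts in AB limit what can be detected there for low genes.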
